A study of Macaca mulatta with 12 samples.

Results

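C5AR1 and SERPING1 are a receptor and an inhibitor of the complement system, and each is read by 1 probe set of the 52707 probe sets tested on the rhesus array. The probe sets were those that the platform annotation assigns to exactly 1 of these symbols: MmugDNA.13403.1.S1_at for C5AR1 (Entrez gene 718056) and MmuSTS.2736.1.S1_at for SERPING1 (Entrez gene 703928). The arrays carried RNA of 12 corpora lutea, the progesterone-secreting glands left after ovulation, 1 array per gland, from female rhesus macaques with normal menstrual cycles. Mid-late glands (n = 4) were removed 10 to 12 days after the LH surge. Late functional glands (n = 4) and late regressed glands (n = 4) were both removed at 14 to 16 days, the former at serum progesterone above 1.5 ng/ml and the latter below 0.5 ng/ml. The late groups were thus sorted by progesterone, and no ages of the animals were used.

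Complement is a cascade of plasma proteases. C1q binding to a surface switches on C1r and C1s (the classical pathway), lectins switch on the MASP proteases (the lectin pathway), and both routes lead to cleavage of C3 and C5. C5AR1 encodes the G protein-coupled receptor for C5a, the small peptide cut from C5 that attracts and activates neutrophils, monocytes and macrophages. SERPING1 encodes C1 inhibitor, a serpin that traps C1r, C1s and the MASP proteases and also blocks plasma kallikrein and coagulation factor XII of the kinin-forming contact system.

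All levels are RMA signals on the log2 scale, where 1 unit is a doubling, and levels of different genes are not compared because probe sets differ in their response. Array medians lay between 4.30 and 4.43. The 95th percentile of 674 mostly dim probe sets with the prefix NC, 4.64, serves here as the mark of low signal, and both genes were above it on every array. The luteal genes STAR and INHA, read as a check of the tissue label, were bright on the mid-late arrays, at 13.38 to 13.66 and 12.49 to 12.67. Late regressed arrays 2 and 3 stood apart on the first principal component (93.2 and 81.6, against -43 to 12.6 for the other 10). On these 2 arrays STAR was at 10.14 and 9.68 and INHA at 9.65 and 9.49, and array 2 also had the largest 3′ to 5′ difference of the actin and GAPDH controls, 2.52 against 0.46 to 0.70. The mean of the NC probe sets was 3.65 to 3.75 on mid-late arrays and lower on all 8 late arrays, 3.48 to 3.61.

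The pair was selected on its limma result for late regressed against mid-late glands, among complement genes with higher signal, so that comparison is described without a test. In limma's fit the adjusted p-values at the edge of the choice were 0.0248 for SERPING1 and 0.0447 for C5AR1, inside the threshold of 0.05. ITGB2 (0.0504) and C1S (0.0566), also higher, were just outside that threshold. CPN1 (0.0191) and VTN (0.0497) passed with lower signal, outside the choice. Of all probe sets, 10% passed that threshold in either direction. The other 2 comparisons each share 4 arrays with the choosing one, mid-late or late regressed, and their p-values are not independent of it.

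C5AR1 had its lowest signals in mid-late glands: 5.59, 6.29, 7.42 and 6.83 on arrays 1 to 4. Late functional glands gave 7.48, 7.59, 7.85 and 7.81. Late regressed glands gave 7.51, 9.81, 9.98 and 7.30. The late regressed values fell into a high pair, arrays 2 and 3, and a lower pair. Array 1 lay inside the late functional range, array 4 just below it, and mid-late array 3 exceeded late regressed array 4. Mid-late and late functional arrays did not overlap, the closest pair being 7.42 and 7.48.

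The group means of C5AR1 were 6.53 ± 0.78 for the mid-late, 7.68 ± 0.18 for the late functional and 8.65 ± 1.44 for the late regressed glands (SD, n = 4 each). The spread itself was large in 2 groups. Among 12993 genes with a symbol, the SD of C5AR1 was larger than that of 99.2% in mid-late and of 99.1% in late regressed glands, against 68.9% in late functional glands.

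SERPING1 signals in mid-late glands were close together, at 8.74, 8.82, 8.56 and 8.87 on arrays 1 to 4. In late functional glands they were 8.95, 8.95, 9.05 and 9.94, and in late regressed glands 9.14, 10.12, 10.04 and 9.91. All 8 late arrays lay above all 4 mid-late arrays. For late regressed against mid-late glands 7.99% of all probe sets had no overlap in that direction. The late groups overlapped through 1 gland of each: late functional array 4 reached the late regressed level and late regressed array 1 stayed near the other late functional arrays. Group means were 8.75 ± 0.14, 9.22 ± 0.48 and 9.80 ± 0.45 (SD, n = 4 each).

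**Figure D1:**
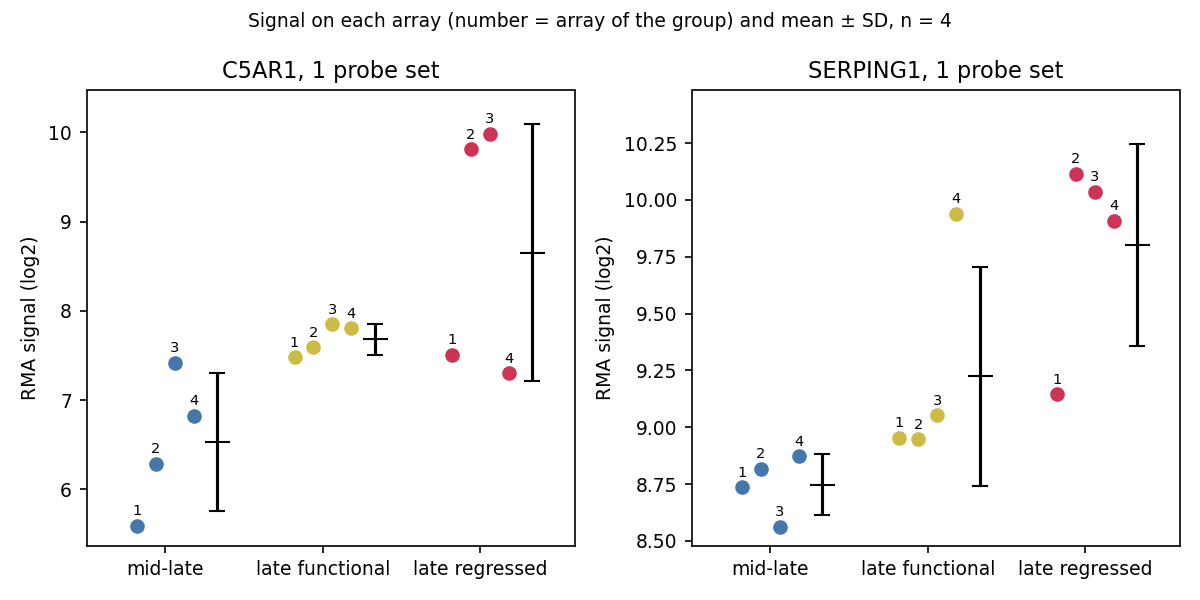
Signal of C5AR1 (left) and SERPING1 (right) on each of the 12 arrays by group, in RMA log2 units on axes that do not start at 0. Points are single arrays with their number in the group, and bars give the mean ± SD of 4 arrays. Late regressed arrays 2 and 3 carry the high C5AR1 signals (9.81 and 9.98), while late regressed arrays 2, 3 and 4 and late functional array 4 are all at 9.91 or above for SERPING1.

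Between late functional and mid-late glands, which differ in day while serum progesterone remained above 1.5 ng/ml in the late ones, C5AR1 was 1.15 log2 units higher (2.22-fold, SE 0.59). The 95% interval ran from -0.14 to 2.44 and limma's adjusted p was 0.322, so the difference did not pass. SERPING1 was 0.48 higher (1.39-fold, SE 0.24), with an interval of -0.06 to 1.01 and an adjusted p of 0.321, and did not pass either. Late functional array 4 supplied much of that value: without it the SERPING1 difference was 0.24. In this comparison 0.892% of all probe sets passed in either direction. A further count over all probe sets gave 7.68% that had every late functional array above every mid-late array, as both genes had. C5AR1 ranked 73rd and SERPING1 694th from the top among 12993 genes by the size of the increase in the means.

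Between late regressed and late functional glands, of the same days but different progesterone, C5AR1 was 0.97 higher (1.96-fold, SE 0.59; interval -0.32 to 2.27; limma adjusted p = 0.576). Without late regressed arrays 2 and 3 the difference turned to -0.27. SERPING1 was 0.58 higher (1.49-fold, SE 0.24), with an unadjusted interval of 0.04 to 1.11 and an adjusted p of 0.387 from limma. Neither passed, and 0.0019% of all probe sets, 1 in all, did so. Leaving out late regressed arrays 2 and 3 left SERPING1 0.30 higher.

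Late regressed against mid-late glands, the comparison behind the choice, gave 2.12 for C5AR1 (4.35-fold, SE 0.59) and 1.05 for SERPING1 (2.08-fold, SE 0.24). The C5AR1 difference was 0.88 without late regressed arrays 2 and 3, whereas SERPING1 kept 0.78. With the NC mean of each array as a covariate C5AR1 came to 0.16 in this comparison and to -0.51 in late functional against mid-late glands. SERPING1 came to 0.91 and 0.36. The order of the means was mid-late, late functional, late regressed for both genes, but neither neighbouring step passed the test. In whole-tissue RNA, more cells of a type and more RNA per cell cannot be told apart.

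The genes most like C5AR1 were TYROBP, CD53, CYBB, DENND4B and PIK3AP1, with Pearson r of 0.990, 0.990, 0.983, 0.982 and 0.982 over the 12 arrays among 8828 candidate genes above the low-signal mark. TYROBP encodes a signalling adaptor of myeloid and NK cell receptors, CD53 a leukocyte tetraspanin, CYBB the catalytic subunit of the phagocyte NADPH oxidase, and PIK3AP1 an adaptor for phosphoinositide 3-kinase. These r values rest on 12 arrays of 3 groups and are descriptive. TYROBP read 7.62, 8.21, 9.61 and 8.93 on mid-late arrays, 9.59, 9.45, 9.88 and 9.50 on late functional arrays, and 9.38, 11.41, 11.39 and 9.18 on late regressed arrays. Its high late regressed arrays were 2 and 3, and its mid-late order (array 1 lowest, then 2, 4 and 3) was that of C5AR1. TYROBP was picked for this likeness.

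SERPING1 was far from this set. Its r with C5AR1 was 0.73, rank 1430 of the 8828 candidates for C5AR1, and 0.39 once each group's mean was removed. The 5 genes most like SERPING1 were ANAPC5 (r = 0.982), a subunit of the anaphase-promoting complex, KDM3A (0.980), a histone demethylase, TES (0.977), a focal adhesion protein, TPCN2 (0.976), a lysosomal cation channel, and RPL35A (0.972), a ribosomal protein. TES shows the shape they share, which follows from their choice by likeness to SERPING1. It read 6.81, 6.86, 7.03 and 7.15 on mid-late arrays, 7.22, 7.21, 7.37 and 8.37 on late functional arrays, and 7.58, 8.76, 8.70 and 8.84 on late regressed arrays. As with SERPING1, late functional array 4 was high and late regressed array 1 was low within their groups.

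**Figure D2:**
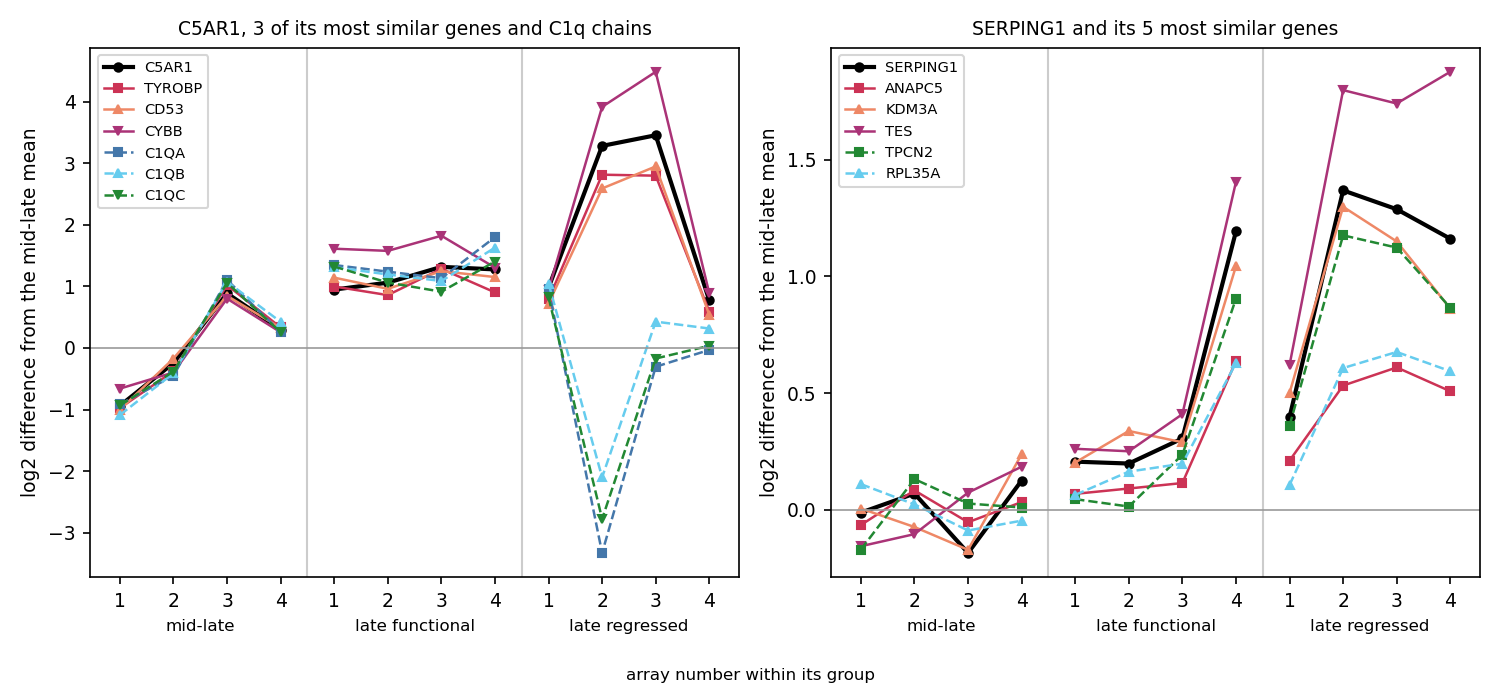
Log2 difference of each array from the mid-late mean of the same gene, for C5AR1 with 3 of its most similar genes and the C1q chains (left) and for SERPING1 with its 5 most similar genes (right). Each point is 1 array and lines only join the points of a gene within a group. The C1q chains run with C5AR1 up to late regressed array 1 and then part from it on array 2 (C1QA 5.73, C5AR1 9.81), and SERPING1 and its similar genes are high on late functional array 4.

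The mean of the macrophage and monocyte markers moved with C5AR1, though not every marker did. The list holds TYROBP, CD53 and CYBB, named above as most like C5AR1, so its mean repeats part of that likeness. Of 15 listed genes 12 were measured, all above the low-signal mark, and their summed log2 signal was 73.2 to 91.0 on mid-late, 92.5 to 93.7 on late functional and 86.0 to 110.0 on late regressed arrays. The mean of the list per array was 6.10, 6.45, 7.59 and 7.04 in mid-late glands, 7.77, 7.71, 7.80 and 7.73 in late functional glands, and 7.39, 8.63, 9.17 and 7.17 in late regressed glands. The 4 arrays lowest in this mean (mid-late 1, 2 and 4 and late regressed 4) and the 2 highest (late regressed 2 and 3) were those of C5AR1, in the same order. On late regressed array 2, however, CSF1R (7.73), SIGLEC1 (6.84) and MSR1 (4.53) were near or below array 1 (7.71, 7.23 and 4.57). In late regressed against late functional glands 9 of the 12 were above 0. The others were CSF1R (-0.59), SIGLEC1 (-0.38) and CD14 (-0.005), where C5AR1 was 0.97 higher. All 12 genes had a higher mean in late regressed than in mid-late glands (median difference 1.39, against -0.02 over all genes). One of them, CYBB, passed (2.56, limma adjusted p = 0.0472, from 5.72, 5.99, 7.19 and 6.64 to 7.33, 10.30, 10.87 and 7.27). The CYBB difference was 0.92 without late regressed arrays 2 and 3 and did not pass then (adjusted p = 0.155), nor when any 1 array other than late regressed 1 or 4 was left out (adjusted p up to 0.115). In late functional against mid-late glands 0 of 12 passed with limma (4 at an unadjusted p below 0.05), with a median difference of 1.10. For comparison, 5.41% of all probe sets rose in late regressed and 0.332% in late functional against mid-late glands.

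C5AR1 is also a receptor of neutrophils, whose markers were mostly dim. Of 9 measured neutrophil genes 2 had a mean above the low-signal mark. The means of CSF3R, MPO, ELANE, MMP8 and FPR1, which encode the G-CSF receptor, granule enzymes and the formyl peptide receptor, all lay below it. The summed signal of the 9 genes was 41.7 to 45.0 on mid-late, 41.9 to 43.9 on late functional and 41.3 to 47.0 on late regressed arrays. In late regressed against mid-late glands 2 of the 9, S100A8 and S100A9 (0.84), were above 0, and the median difference was -0.11. LCN2, the brighter of the 2 above the low-signal mark (mean 10.39), was at -0.39. S100A8, a calcium-binding protein of neutrophils and monocytes, was the 1 gene of the list that passed in late regressed against mid-late glands (2.40, limma adjusted p = 0.0233). It was bright on late regressed arrays 1, 2 and 3 (7.06, 7.80 and 7.25) and not on array 4 (4.50), and its difference fell short without arrays 2 and 3 (1.53, adjusted p = 0.141). Without mid-late array 2 or 4 or late regressed array 3 alone it also missed the threshold (adjusted p up to 0.0626). Of the mast cell and the B and plasma cell lists 0 of 4 measured genes each passed in this comparison with limma (0 and 1 at an unadjusted p below 0.05). Of 6 T and NK cell genes 1 rose, GNLY, a cytotoxic granule protein, by 1.71 (adjusted p = 0.0257; lost without mid-late or late regressed array 3, and at 0.120 without late regressed arrays 2 and 3), and of 6 smooth muscle and pericyte genes 1 fell, MCAM, by 0.88 (adjusted p = 0.0434; lost in 9 of 12 fits without 1 array, and -0.42 at 0.119 without late regressed arrays 2 and 3). A second GNLY probe set gave -0.03 and did not pass. Of the 6 T and NK cell genes 2 were above 0, GNLY and KLRD1 (0.29), with a list median of -0.09 and GZMB at -0.96. Of the 6 smooth muscle and pericyte genes 3 were above 0, the largest being MYH11 (1.18, limma adjusted p = 0.0725). Over all probe sets 5.41% rose and 4.61% fell. The part of macrophages, neutrophils or their RNA content in the C5AR1 signal was not tested.

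For SERPING1, which fibroblasts, endothelial cells and monocytes are known to make, the stromal lists were read beside it. Of 10 measured endothelial genes 4 rose in late regressed against mid-late glands, TEK by 0.89, SOX17 by 0.76, CLDN5 by 0.70 and ERG by 0.53. The other 6 did not pass and were mixed in direction: CDH5 0.31, PECAM1 0.19, TIE1 0.14, VWF 0.04, EMCN -0.41 and KDR -0.83. Of 9 fibroblast genes 5 rose: FBLN1 by 1.74, COL14A1 by 1.33, DPT by 1.29, DCN by 0.93 and GSN by 0.92. The other 4 had differences below 0 that did not pass: LUM -0.79, COL1A1 -0.76, COL3A1 -0.47 and COL1A2 -0.18. Over all probe sets 5.41% rose in this comparison, as did 1022 of 12993 genes with a symbol, read like the lists by their brightest probe set. Brighter probe sets passed more often. Of 23752 above the low-signal mark, fitted alone, 4109 passed in either direction, 68.8% of them upward. Leaving out each of the 12 arrays in turn, CLDN5, ERG, FBLN1 and GSN passed every time, while TEK failed 3 times (adjusted p up to 0.0663), DPT 7, COL14A1 9, SOX17 9 and DCN 11 times (DCN up to 0.112). Without late regressed arrays 2 and 3 together CLDN5, FBLN1 and GSN passed. ERG (adjusted p = 0.0984), TEK (0.140), SOX17 (0.0786), DPT (0.123), DCN (0.149) and COL14A1 (0.264, difference 0.62) did not. Dimmer second probe sets of ERG, TEK, SOX17, COL14A1 and GSN did not pass in the full fit. The mean endothelial signal was 8.52 to 8.68 on mid-late, 8.70 to 8.86 on late functional and 8.67 to 9.02 on late regressed arrays. The highest late functional array was number 4 and the highest late regressed array number 2, as for SERPING1. Late regressed arrays 1 and 3 went the other way: array 3 had the lowest endothelial mean of its group (8.67) at a SERPING1 signal of 10.04. Array 1 had 8.96 at the lowest SERPING1 signal of the group (9.14). The mean fibroblast signal was 7.91 to 8.70, 8.28 to 8.62 and 8.52 to 8.88, and late functional array 4 (8.42) was within its group. In late functional against mid-late glands 0 of these 19 genes passed with limma (5 at an unadjusted p below 0.05). The part of these cells in the SERPING1 signal was not tested.

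HSD3B2, the enzyme that completes progesterone synthesis, fell in late regressed against mid-late glands (-3.11, limma adjusted p = 0.00548) and in late functional against mid-late glands (-1.69, adjusted p = 0.0435). Of the 9 measured luteal genes CYP19A1, the aromatase, and FDXR, which passes electrons to steroid hydroxylases, also fell in the former (-3.09 and -1.66, adjusted p = 0.0137 and 0.0354; FDXR failed in 8 of 12 fits without 1 array). The other 6 did not pass in late regressed against mid-late glands, and 2 of the 9 were above 0. Of all probe sets, 4.61% fell in that comparison and 0.56% in late functional against mid-late glands. Without late regressed arrays 2 and 3 CYP19A1 was at -1.82 and still passed (limma adjusted p = 0.0406), and FDXR was at -0.80 and did not (0.191). The HSD3B2 call in late functional glands was lost in 10 of 12 fits without 1 array, all but those without late regressed array 2 or 3 (adjusted p up to 0.122). Its late functional signals were 10.52, 10.43, 9.88 and 9.04, lowest on array 4, where SERPING1 was highest. Late regressed array 4 had high SERPING1 and low HSD3B2 (9.91 and 8.70) but little C5AR1 (7.30). Late regressed array 1 combined low HSD3B2 (8.52) with the lowest SERPING1 of its group (9.14). High SERPING1 thus went with low HSD3B2 on 4 arrays, and low HSD3B2 was also present without it.

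**Figure D3:**
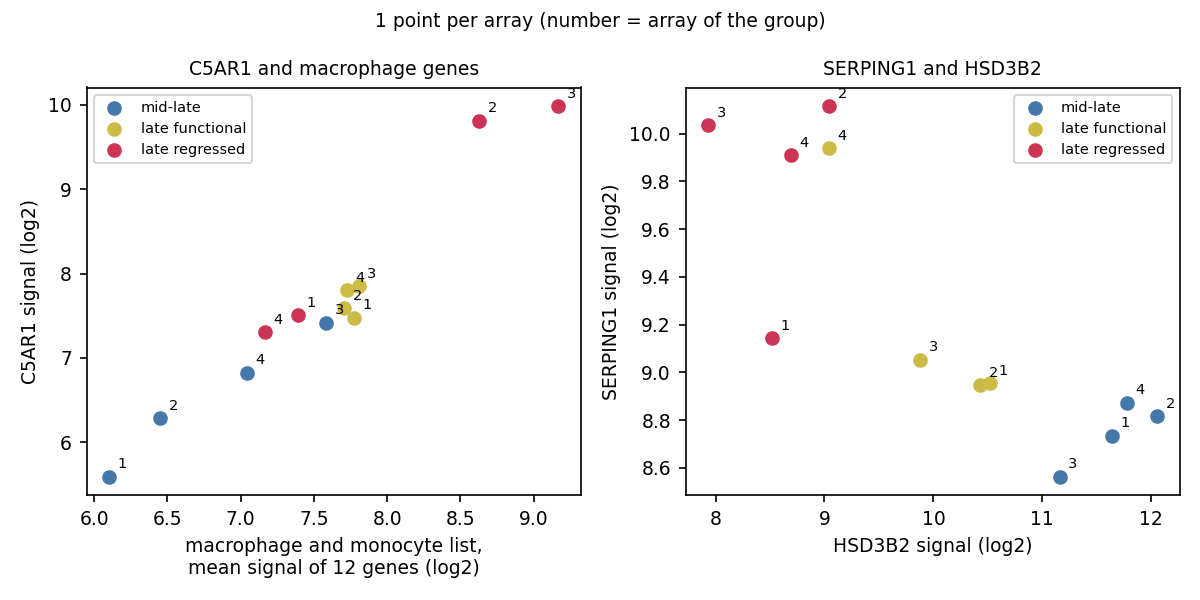
Left, C5AR1 signal against the mean signal of 12 macrophage and monocyte genes, among them TYROBP, CD53 and CYBB, which were most like C5AR1. Right, SERPING1 signal against HSD3B2 signal. Each point is 1 array, coloured by group and numbered within it, on log2 axes that do not start at 0. C5AR1 lies along the macrophage mean from mid-late array 1 (5.59 at 6.10) to late regressed array 3 (9.98 at 9.17), and in the right panel late regressed array 1 sits below the other 3 of its group (9.14 at an HSD3B2 signal of 8.52).

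Besides the pair, 34 of 48 listed complement genes were measured, 17 of them above the low-signal mark. The pair left out were the measured complement genes that passed upward in late regressed against mid-late glands. That 0 of the others rose there was thus fixed by the choice and is not a result about complement. Of these 34 genes 2 fell, where 4.61% of all probe sets fell and 5.41% rose. Their median difference was -0.07, against -0.02 over all genes. The 2 were VTN, vitronectin, a plasma and matrix protein that blocks the terminal complex (-0.73, limma adjusted p = 0.0497), and CPN1, the catalytic chain of the carboxypeptidase that trims C3a and C5a (-0.35, adjusted p = 0.0191, at a mean signal of 4.16, below the low-signal mark). Without late regressed arrays 2 and 3 neither passed (adjusted p = 0.278 for VTN and 0.120 for CPN1). CPN1 also failed without mid-late array 2 (0.0506), and VTN in 9 of 12 fits without 1 array, all but those without mid-late array 3 or late regressed array 1 or 4 (up to 0.124). In late functional against mid-late glands 1 rose and 0 fell (median difference 0.02), where 0.332% of all probe sets rose and 0.56% fell. In late regressed against late functional glands 0 of 34 passed with limma (7 at an unadjusted p below 0.05; median -0.06).

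The ligand and the other receptor of C5AR1 were dim. C5, the precursor of C5a, read 3.17 to 3.70 over the 12 arrays. C5AR2, the second C5a receptor and the gene next to C5AR1 in the RefSeq gene table, read 3.16 to 3.44. Both lay below the low-signal mark on every array. C3 and the C3a receptor gene C3AR1 are not analysed here.

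Several receptor and integrin genes had large but uncalled differences. ITGB2, the beta chain of complement receptors CR3 and CR4, read 5.63, 7.05, 7.01 and 6.64 in mid-late glands, 7.61, 7.65, 7.78 and 7.08 in late functional glands, and 8.01, 9.21, 10.09 and 6.86 in late regressed glands. Its late regressed array 4 was the lowest of the group, as for C5AR1, and its difference from mid-late was 1.96 (limma adjusted p = 0.0504). VSIG4, a complement receptor of tissue macrophages, read 5.11 to 7.26 in mid-late, 6.27 to 8.32 in late functional and 5.79 to 7.54 in late regressed glands. CD55, a membrane inhibitor of the convertases, was 0.79 higher in late regressed than in late functional glands (adjusted p = 0.283).

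Of the proteases that C1 inhibitor traps, 6 of 9 were measured. C1S, the protease that cuts C4 and C2, rose in late functional against mid-late glands by 1.17 (2.25-fold, SE 0.24, limma adjusted p = 0.0479). It read 8.72, 9.45, 9.96 and 9.81 in mid-late glands, 10.61, 10.60, 10.70 and 10.70 in late functional glands, and 10.15, 10.06, 10.75 and 10.09 in late regressed glands. Late functional arrays were all above all mid-late arrays. Leaving out any 1 of the 8 mid-late or late functional arrays, or late regressed array 1 or 4, ended the call (adjusted p 0.055 to 0.133), and a second C1S probe set gave 1.43 without passing (adjusted p = 0.106). With the NC mean as covariate the difference was 0.34.

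The lectin pathway proteases did not follow C1S. MASP1 had means of 6.72, 6.60 and 6.74 and MASP2 of 7.28, 7.14 and 7.04 in mid-late, late functional and late regressed glands, and neither passed in any comparison. A second, dim MASP2 probe set (mean 3.63, below the low-signal mark) fell in late regressed against mid-late glands (-0.43, limma adjusted p = 0.0348). Plasma kallikrein (KLKB1) and plasminogen (PLG) lay below the low-signal mark, and F12, coagulation factor XII, at a mean of 4.90. C1R is not analysed here.

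The chains of C1q, the recognition part of C1 and a product of macrophages, parted from C5AR1 in the late regressed glands. They are named here after their values were seen. C1QA read 8.15, 8.61, 10.17 and 9.32 in mid-late glands, 10.41, 10.30, 10.20 and 10.86 in late functional glands, and 10.02, 5.73, 8.76 and 9.03 in late regressed glands. All late regressed arrays were below all late functional ones, a pattern that 2.47% of all probe sets had. A second C1QA probe set disagreed in part: it gave 0.09 for late functional minus mid-late, where the first gave 1.38, and -1.49 for late regressed minus late functional with overlapping arrays (adjusted p = 0.271). With the first probe set the late regressed minus late functional difference was -2.05 (SE 0.74, interval -3.68 to -0.43) and did not pass (limma adjusted p = 0.317). C1QB and C1QC gave -1.38 and -1.70 (adjusted p = 0.407 and 0.338). Without late regressed array 2, the one with the high 3′ to 5′ control difference, the 3 values were -1.17, -0.71 and -0.95. On that array C1QA was at its lowest while C5AR1 and TYROBP were near their highest.

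In the alternative pathway CFB, the protease subunit of its C3 convertase, was 0.90 higher in late functional than in mid-late glands (limma adjusted p = 0.124) and CFP, properdin, 0.75 higher (adjusted p = 0.107). CFD, the protease that activates factor B, was 1.35 higher in late regressed than in mid-late glands (adjusted p = 0.134), with 8.40, 9.65, 9.20 and 6.44 on the late regressed arrays. Array 4 was again the low one. None of these 3 passed in any comparison.

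**Figure D4:**
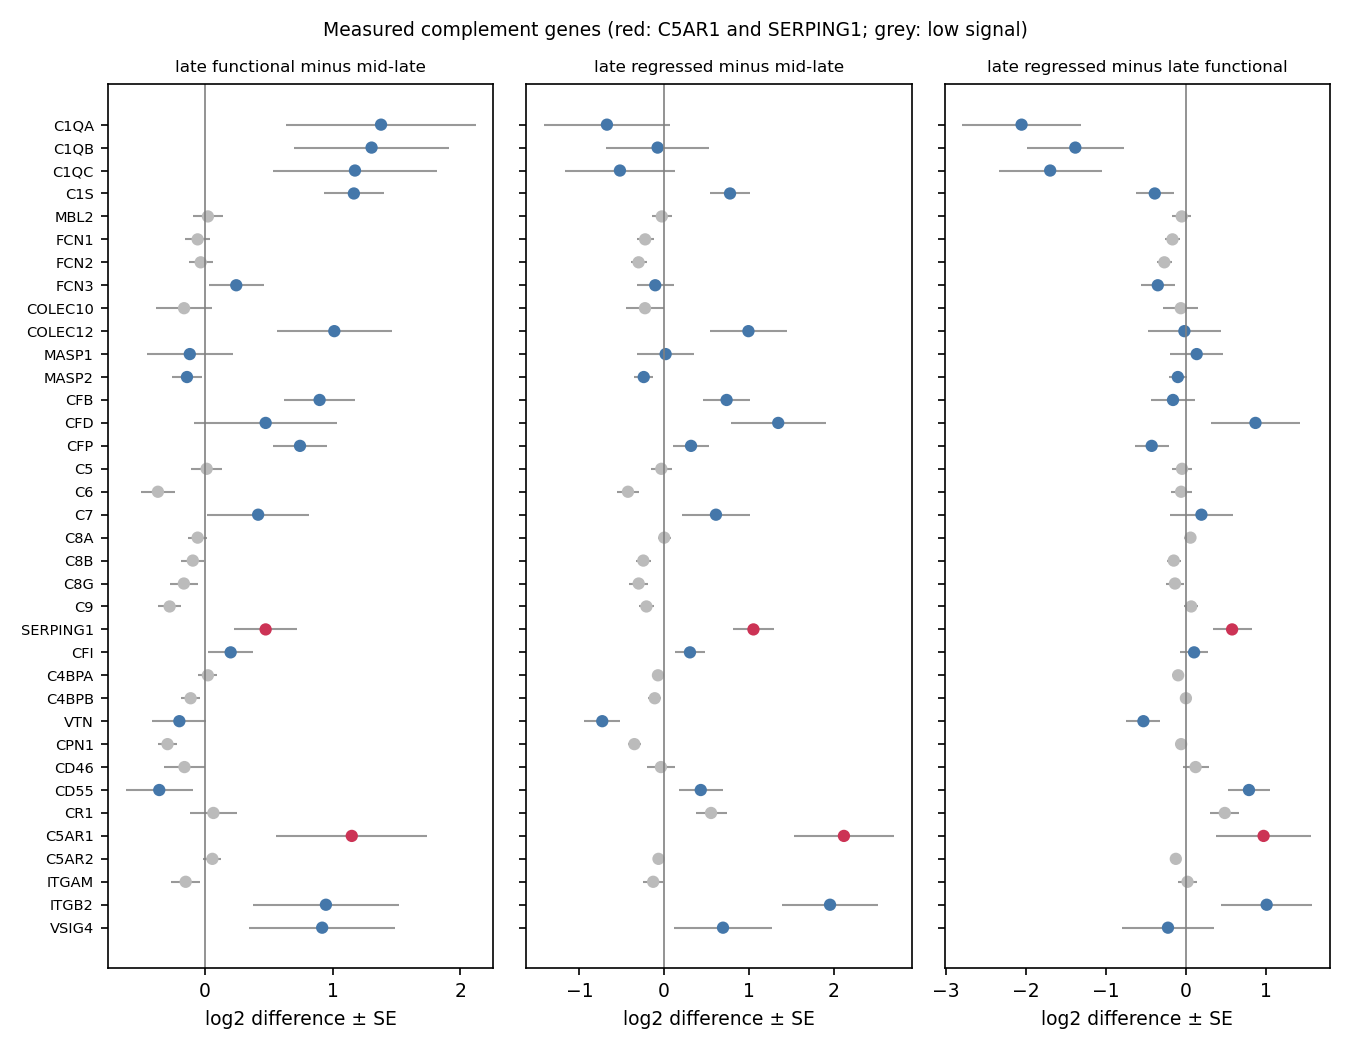
Log2 difference ± SE of limma's fit for the 36 measured complement genes in the 3 comparisons, with 4 arrays per group. Points right of 0 are higher in the first-named group, C5AR1 and SERPING1 are red, and grey genes have a mean below the low-signal mark of 4.64. The C1q chains lie right of 0 in late functional minus mid-late (1.18 to 1.38) and left of 0 in late regressed minus late functional (-1.38 to -2.05), while C5AR1 lies right of 0 in both.

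Downstream of C5AR1, 11 of 15 listed signalling genes were measured. In late regressed against mid-late glands 1 rose and 1 fell, where 5.41% of all probe sets rose and 4.61% fell. ARRB2, an arrestin that uncouples and internalises activated receptors, rose by 0.87 (limma adjusted p = 0.0449), from 7.32, 7.49, 7.66 and 7.27 to 7.91, 8.91, 8.77 and 7.65, with late regressed arrays 2 and 3 again highest. Without those arrays it was 0.34 higher and did not pass (adjusted p = 0.198), nor in any fit without 1 array other than late regressed 1 or 4 (adjusted p up to 0.113). PIK3R5, a regulatory subunit of the phosphoinositide 3-kinase that G protein-coupled receptors activate, fell by 0.49 (adjusted p = 0.00966) and also fell by 0.40 in late functional against mid-late glands (adjusted p = 0.0495). The latter call was lost when any 1 array but late regressed array 2 was left out (adjusted p up to 0.148). Of 7 other chemoattractant receptors 0 rose and 1 fell, LTB4R, the leukotriene B4 receptor, by 0.33 (adjusted p = 0.0234; up to 0.0618 without mid-late array 1 or 2 or late regressed array 3, and 0.122 without late regressed arrays 2 and 3). Its 2 dimmer probe sets did not pass.

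SERPING1 is known to be induced by interferon gamma, and 12 of 16 genes of that axis were measured. IFNG itself was dim, at 3.03 to 3.25. IRF1, a transcription factor induced by interferon gamma, rose in late functional against mid-late glands by 1.35 (limma adjusted p = 0.0358) and in late regressed against mid-late glands by 0.98 (adjusted p = 0.0247). It read 6.02, 6.41, 6.78 and 6.45 in mid-late glands, 7.77, 7.75, 7.75 and 7.77 in late functional glands, and 7.11, 7.16, 8.20 and 7.12 in late regressed glands. Late functional glands were nearly equal in IRF1. Their SERPING1 read 9.94 on array 4 and 8.95 to 9.05 on the others. The IRF1 increase in late functional glands did not pass when any 1 mid-late or late functional array was left out (adjusted p up to 0.108). That in late regressed glands did not pass without arrays 2 and 3 (0.70, adjusted p = 0.0532) or without mid-late array 1 or 2 (adjusted p up to 0.0667). GBP2, an interferon-induced GTPase, rose in late regressed against mid-late glands by 0.74 (limma adjusted p = 0.00742). Its 2 dimmer probe sets gave 0.07 and 0.02 and did not pass. The other 10 genes of the list did not pass in any comparison. In late functional against mid-late glands GBP1 (2.26) and IDO1 (2.17) had the largest differences of the list (limma adjusted p = 0.133 and 0.178). There 7 of the 12 were above 0 and 6 had an unadjusted p below 0.05. Of all probe sets, 5.41% rose in late regressed and 0.332% in late functional against mid-late glands. The part of interferon gamma in the SERPING1 signal was not tested.

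The genes beside each member in the RefSeq gene table were read for shared change. Of the 3 on either side of C5AR1, 5 were measured (BBC3, CCDC9, C5AR2, DHX34 and MEIS3) and 0 passed in any comparison with limma. Of the 3 on either side of SERPING1, 5 were measured. TIMM10, a chaperone of mitochondrial import, fell in late regressed and in late functional against mid-late glands (-0.41 and -0.40, limma adjusted p = 0.0110 and 0.0403). UBE2L6, a conjugating enzyme for the interferon-induced modifier ISG15, had means of 8.89, 10.18 and 8.90 in mid-late, late functional and late regressed glands and did not pass. ZDHHC5, CLP1 and SMTNL1 did not pass either. Of all probe sets, 4.61% fell in late regressed and 0.56% in late functional against mid-late glands. In either direction 10% and 0.892% passed in these comparisons.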

How the data were processed

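The deposited table holds log2 values, which the authors made with RMA per the submitters' processing notes, version and parameters not given in the sources used here. RMA commonly equalises the arrays' distributions, which hides any shift in RNA content per cell. Per the labels, arrays are biological replicates, 4 per group; no batch is given. Of 52865 probe sets, 158 array controls were left out. Genes were named from the platform annotation where it gave 1 symbol, and represented by their brightest probe set. limma 3.58.1 in R 4.3.3 (lmFit, eBayes) fitted 3 group means over 12 arrays. Adjusted p-values are Benjamini-Hochberg values over all 52707 probe sets within a comparison, called below 0.05. Scripts were tested on simulated data. The number of arrays limits the precision. RefSeq (T2T-MMU8v2.0) served for gene order only.

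Named were the pair, C5, C5AR2, C1S, MASP1 and MASP2, up to 4 called genes per list, the 5 genes most like each member, and, after their values were seen, others given as values. Members and lists were chosen with earlier results of these data known.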

Additional observations from a re-analysis of the deposited data

Results flagged for a closer look

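In 117 groups of 4 arrays, over a chosen part of the genes read here, 11 had 1 array whose gap to the nearest of the other 3 exceeded Dixon's 95% critical value for the share of the group's range. The stromal genes, VSIG4, CFP and COLEC12 were not in that part. Chance flags about 1 in 20 groups. For SERPING1, late functional array 4 (9.94) was above the other 3 (8.95 to 9.05). The same array was high in 3 of the genes most like SERPING1: ANAPC5 at 9.28 (others 8.71 to 8.76), KDM3A at 7.51 (6.66 to 6.80) and TES at 8.37 (7.21 to 7.37). Late regressed array 1 was low in TES, at 7.58 (8.70 to 8.84), and in RPL35A, at 12.35 (12.84 to 12.92). Genes chosen for their likeness to SERPING1 are not independent of its pattern.

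Late regressed array 3 was high in C1S, at 10.75 (others 10.06 to 10.15), and in IRF1, at 8.20 (7.11 to 7.16). Mid-late array 1 was low in CFB, at 7.12 (8.32 to 8.54), and in UBE2L6, at 7.41 (9.26 to 9.51). Late functional array 3 was low in S100A8, at 4.41 (4.74 to 4.80), near the low-signal mark. For C5AR1 0 of its 3 groups met this criterion.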

How the results depend on the processing

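SERPING1 kept its direction in all 24 alternatives of each comparison: 0.78 to 1.27 for late regressed against mid-late (0.95 to 1.27 leaving out 1 array), 0.24 to 0.57 for late functional against mid-late (0.24 without late functional array 4) and 0.30 to 0.82 for late regressed against late functional glands. C5AR1 in late regressed against mid-late glands moved to 0.16 with the NC mean as covariate and to 0.88 without late regressed arrays 2 and 3 (1.68 to 2.57 leaving out 1 array). It reversed in late functional against mid-late glands with the NC covariate (-0.51, adjusted p = 0.937; adjusted p over the alternatives 0.0573 to 0.937) and in late regressed against late functional glands without those 2 arrays (-0.27, adjusted p = 0.964; 0.259 to 0.964). The NC covariate also reversed VTN in late regressed against mid-late glands (0.055). The NC mean differs between mid-late and late arrays, so that covariate shares its variation with the comparison. The adjusted p by which the pair was chosen stayed below 0.05 in 7 of 24 alternatives for C5AR1 and 17 of 24 for SERPING1. Called complement genes besides the pair, 2 in late regressed against mid-late glands, numbered 1 with median centring or array weights, 4 with the replicate block and 0 with only the 2 groups, the NC covariate or without late regressed arrays 2 and 3; leaving out 1 array gave 0 (without mid-late array 2) to 5 (without late regressed array 1). In late functional against mid-late glands the 1 call became 3 with only the 2 groups, array weights or without late regressed arrays 2 and 3, and 0 with either low-signal filter, median centring, renewed quantile normalization, the replicate block, the NC covariate or the mean over probe sets; leaving out 1 array gave 0 to 1. Between the late groups it was 0 in all 24. Over all probe sets the calls ran from 0 to 7532 (5282 as reported) for late regressed against mid-late, 0 to 3106 (470) for late functional against mid-late and 0 to 924 (1) for the late groups. Of those reported, 54.0% and 37.2% were higher in the first 2 comparisons, 67.6% and 56.2% with median centring and 45.4% and 25.2% with quantile normalization. Same-numbered arrays deviated from their group means with correlations of -0.12 to 0.30, and 5 of 12 arrays correlated best with their own number, so the numbers were not taken as pairs; with the replicate block the adjusted p was 0.251 and 0.279 for C5AR1 and SERPING1 in late functional against mid-late, and 0.476 and 0.351 between the late groups. The causes of these changes were not tested.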

Other observations

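BDKRB1, the bradykinin B1 receptor of the kinin system that C1 inhibitor restrains, was bright on 1 array. It was at most 6.31 in mid-late and 6.05 in late functional glands, and read 5.81, 10.76, 6.32 and 7.21 on late regressed arrays 1 to 4. Array 2, the one with the 3′ to 5′ control difference of 2.52, carried the high value. The difference from mid-late was 1.92 and did not pass (limma adjusted p = 0.148). BDKRB1 is named here after its values were seen.

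COLEC12, a scavenger receptor of the collectin family, was highest on late functional array 4, the array on which SERPING1 stood apart. It read 6.18, 6.69, 6.85 and 8.53 in late functional glands, 5.57 to 6.66 in mid-late and 6.43 to 7.64 in late regressed glands, and passed in no comparison.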
